A study of Mus musculus with 6 samples.

Results

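Regions of methylated DNA that lay far from any other were examined in mouse chondrocytes, the cells that make and maintain cartilage. Among 83968 peaks of methyl-CpG capture on the 16 chromosomes covered, of which chromosome 6 only in part, 532 had a gap of more than 100 kb to both the preceding and the following peak. They are called isolated peaks here, and the remaining 83436 are called other peaks. The isolated peaks were chosen by the positions of the called peaks, so their number and their gaps are a description. The first and the last peak of each chromosome, 32 in all, were left out of the choice. The gap to their only neighbour was over 100 kb for 0 of them, and the stretch towards the chromosome end was not measured.

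The study describes 6 primary cultures, 3 from control mice and 3 from conditional knockout (cKO) mice, all taken from knee articular cartilage at postnatal day 3 to 5. The control genotype is given as Dnmt1 flox and the cKO genotype as Prx1-Cre;Dnmt1 flox/flox, so floxed Dnmt1 is named for both groups. Prx1-Cre is active in early limb mesenchyme and its descendants, which include bone, tendon and connective tissue cells as well as cartilage, and the zygosity and any Cre of the controls are not given in the sources used here. The values come from a single list called on 3 merged datasets, without a statement of which cultures these were. Control and cKO therefore could not be compared, and no value below has a replicate error. The depth of the libraries is unknown. The list is titled as Dnmt1-mediated DNA methylation regions, without a statement of how these were defined. The caller's settings are not given in the sources used here. It is therefore unknown which data supplied the background that the folds below are taken over. The differences between isolated and other peaks are given as medians, shares and counts of chromosomes in each direction, with no test, because peaks of 1 list are not replicates. Intervals in parentheses are exact 95% intervals that treat peaks as independent and cover counting error only.

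When a cell divides, the enzyme DNMT1 passes the methylation of CpG sites on to the newly made strand. Most CpG sites of a mammalian genome are methylated, except in CpG islands, which are CpG-rich stretches found at many promoters. Capture with the methyl-binding protein MBD2 pulls down DNA fragments that carry several methylated CpG sites, so it favours CpG-dense methylated DNA over sparse methylated DNA. A stretch without a peak is therefore not a stretch without methylation.

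The isolated peaks lay almost without exception outside promoter windows, as did nearly all other peaks. RefSeq promoter windows of GRCm38.p6, which reach from 250 bases before a transcription start to 50 bases after it, were available for 15 of the 16 chromosomes. On these, 1 of 505 isolated peaks overlapped such a window, which is 0.198% (0.00501 to 1.10%), against 945 of 79908 other peaks, or 1.18%. That 1 window belongs to Gm15389, a long noncoding RNA gene. Its window is shown because it is the only window of the table that an isolated peak overlapped, on the plus strand at chr1:107686750-107687049, with the 23 bases inside the peak in capitals:
Gm15389: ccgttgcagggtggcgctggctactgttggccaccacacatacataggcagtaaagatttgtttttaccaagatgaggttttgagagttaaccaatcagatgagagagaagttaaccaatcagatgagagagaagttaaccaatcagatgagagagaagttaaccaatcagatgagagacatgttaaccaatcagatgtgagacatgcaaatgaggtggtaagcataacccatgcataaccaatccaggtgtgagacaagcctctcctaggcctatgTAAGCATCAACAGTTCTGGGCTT
The peak, chr1:107687027-107687359, reached a fold of 13.6 over its local background from 99 reads. Reads at a peak, here and below, are the depth that the caller's values imply, not a count over the whole region. The window holds 2 CG dinucleotides, where the median of 8990 lncRNA promoter windows was 4.

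Besides Gm15389, 7 genes had a promoter window within 2000 bp of an isolated peak that the peak did not reach. The windows of Serpinb10, Speer4f1, Gm46326 and Gm31828 held 0 or 1 CG in 300 bases, and those of Stxbp6, Pax6 and Kcnd2 held 19, 16 and 26. The last 3 are genes with roles in neurons or development, and they were picked after the values were seen. The 250 bases before each start are shown with every CG in capitals, to set these starts beside peaks that do not reach them:
Stxbp6: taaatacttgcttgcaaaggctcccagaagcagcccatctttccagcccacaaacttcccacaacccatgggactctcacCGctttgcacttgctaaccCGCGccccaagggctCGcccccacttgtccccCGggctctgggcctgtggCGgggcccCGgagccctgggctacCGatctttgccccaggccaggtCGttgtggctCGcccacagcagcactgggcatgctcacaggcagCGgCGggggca
Pax6: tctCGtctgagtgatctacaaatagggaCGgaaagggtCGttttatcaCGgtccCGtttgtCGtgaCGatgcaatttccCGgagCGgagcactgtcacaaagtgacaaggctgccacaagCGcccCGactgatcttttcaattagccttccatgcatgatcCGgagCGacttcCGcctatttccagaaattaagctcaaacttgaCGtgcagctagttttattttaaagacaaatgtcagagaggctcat
Kcnd2: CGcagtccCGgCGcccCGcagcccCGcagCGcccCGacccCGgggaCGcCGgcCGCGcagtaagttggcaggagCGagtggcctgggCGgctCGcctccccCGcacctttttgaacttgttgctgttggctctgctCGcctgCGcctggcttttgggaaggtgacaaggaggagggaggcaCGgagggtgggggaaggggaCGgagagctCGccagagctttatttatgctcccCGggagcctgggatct
The Stxbp6 stretch lies on the minus strand at chr12:45074484-45074733, and it holds 12 CG. Stxbp6 encodes a syntaxin-binding protein, and its isolated peak, chr12:45075715-45075995, had a fold of 12.8 with its midpoint 1372 bp upstream of this start. The RefSeq gene body of Stxbp6 reaches further upstream than this start, to 737 bp from the midpoint. The Pax6 stretch lies on the plus strand at chr2:105682213-105682462, and it holds 15 CG. Pax6, a homeobox transcription factor of eye and brain, had a peak of fold 4.47 with its midpoint 1022 bp upstream of this start, still inside the gene as the table draws it. The Kcnd2 stretch lies on the plus strand at chr6:21215096-21215345, and it holds 22 CG. Kcnd2 encodes a voltage-gated potassium channel subunit, and its peak of fold 18.6 and 1179 bp had its midpoint 1497 bp downstream of the start. Among 15398 protein-coding promoters in the table, the median was 11 CG in the same 250 bases (quartiles 3 and 20), and 94.4% held at least 1. Stxbp6 and Pax6 thus lay between the median and the upper quartile, and only Kcnd2 lay above it. CG reads the same on both strands, so each CG was counted once.

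An isolated peak also held a small RNA gene. The hairpin of the microRNA gene Mir5099, at chr12:36816205-36816278 on the plus strand, lay wholly inside the isolated peak chr12:36816143-36816718, which had a fold of 13.0. The hairpin is shown with its only CG in capitals, because it is the only microRNA hairpin of the RefSeq table that lay in an isolated peak:
Mir5099: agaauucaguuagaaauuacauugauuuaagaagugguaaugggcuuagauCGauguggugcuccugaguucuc
The next nearest hairpins were those of Mir876 at 33.4 kb, Mir137 at 38.6 kb and Mir6343 at 49.0 kb from an isolated peak.

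The smaller of the gaps to the neighbours had a median of 122942 bp among isolated peaks, with a range from 100021 to 278431 bp. Among other peaks the median was 3309 bp. The isolated peaks just inside the threshold were chr1:78246646-78247379 at 100021 bp (fold 7.63), the Pax6 peak at 100048 bp and chr1:29485520-29486042 at 100074 bp (fold 32.0). Just outside it were chr4:67233326-67233937 at 99952 bp (fold 10.7), chr17:77014225-77014523 at 99934 bp (fold 11.7) and chr3:40352040-40352720 at 99932 bp (fold 25.7). The folds on the 2 sides of the threshold overlapped.

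The most remote isolated peak lay on chromosome 4 at chr4:30650476-30651170. It was 300 kb from the preceding peak and 278 kb from the following one, with a fold of 34.8. The nearest protein-coding gene, Map3k7, which encodes the signalling kinase TAK1, was 1313 kb away. The next, chr10:102819440-102819617, was a weak peak of fold 6.51 inside the pseudogene Gm5175, 188 kb from Alx1, a homeobox gene of craniofacial development. A peak in Immp2l, chr12:41773620-41774021, had gaps of 271 and 314 kb and a fold of 15.9. On the same chromosome chr12:46549492-46549857 had gaps of 269 and 550 kb and a fold of 17.1, 148 kb from the neuronal splicing factor gene Nova1. The other 6 of the 10 most remote were on chromosomes 5, 6, 11, 18 and 19. Their folds ran from 2.97 to 32.3, so remoteness did not go with a single level of enrichment.

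Isolated peaks were somewhat wider than other peaks and were not the most strongly enriched. Their median width was 472 bp, with quartiles at 297 and 639 bp, against 415 bp for other peaks, and the median was larger on 13 of 16 chromosomes. The fold is the authors' value, that is the reads at the peak over the reads the caller took as local background. The median fold was 12.6 (quartiles 7.49 and 19.999) against 13.2 (8.44 and 21.7), and it was lower on 12 of 16 chromosomes. The interval of the isolated median, 11.1 to 13.8, includes the median of other peaks, and with a gap limit of 200 kb the direction turned, to 15.1 against 13.2. A fold of at least 20 was reached by 133 of the 532 isolated peaks (21.4 to 28.9%) and by 29.0% of other peaks. The highest isolated fold was 42.7, and 1028 other peaks, or 1.23%, exceeded it. The median depth at the peak in reads, recovered from the fold and the p-value, was 182 against 127.

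A raised local background was more frequent at isolated peaks on every chromosome covered. Most peaks shared a background of 6.37 reads, called the lowest background here. Of the isolated peaks 218, or 41.0% (36.8 to 45.3%), had a background above it, against 20755 other peaks, or 24.9%. The isolated share was higher on 16 of 16 chromosomes. A background of at least 60 reads, a limit set after the values were seen, was found at 71 isolated peaks, or 13.3% (10.6 to 16.5%), and at 4330 other peaks, or 5.19%, again higher on 16 of 16 chromosomes. These 71 peaks had a median fold of 4.73, a median width of 842 bp and a median of 437 reads, and the 4330 others had 4.82, 771 bp and 443 reads.

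The plot of background and gene bodies by the distance to the nearer neighbour places isolated peaks at the end of a gradient. The share of peaks above the lowest background was 37.4% where the nearer neighbour lay within 1 kb, fell to 18.1% at 1 to 10 kb, and was higher in each wider class after that, with 35.5% at 75 to 100 kb, 39.9% at 100 to 150 kb and 45.3% beyond 150 kb. The 100 kb threshold marks no step in this series.

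**Figure D1:**
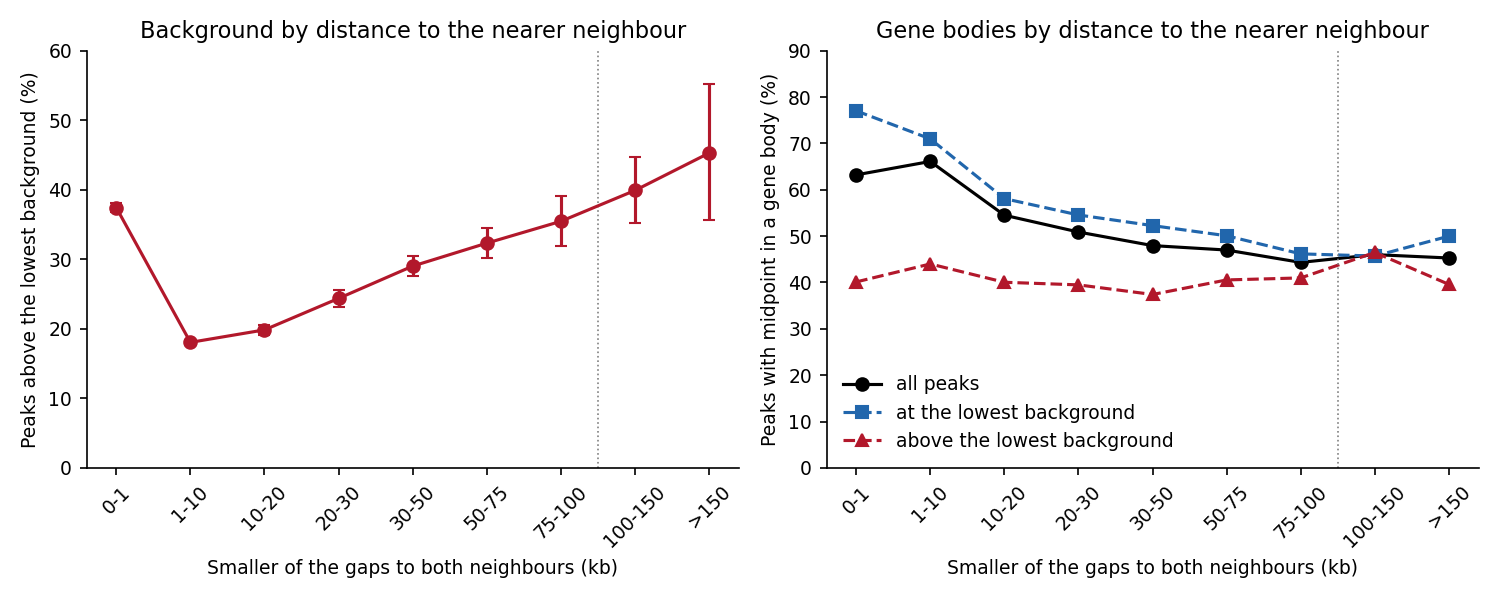
Share of peaks above the lowest background (left, percent, with exact 95% intervals) and share with the midpoint in a gene body (right, percent) by the smaller of the gaps to both neighbours (kb). The dotted line marks 100 kb, to the right of which all peaks are isolated. The left curve is lowest at 1 to 10 kb (18.1%) and reaches 45.3% beyond 150 kb, and on the right the peaks at the lowest background start at 77.0% and are level with the red triangles at 100 to 150 kb (45.7 and 46.5%).

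The width difference moved with the background. Among peaks at the lowest background the median width was 342 bp for 314 isolated peaks and 355 bp for 62681 others. Above it the medians were 661 bp for 218 isolated and 646 bp for 20755 others. The median fold was lower for isolated peaks in both kinds, 12.8 against 13.4 at the lowest background and 11.2 against 12.5 above it. The intervals of the isolated medians, 11.7 to 14.4 and 8.73 to 13.8, include the medians of other peaks. The isolated median fold was lower on 11 of 16 chromosomes at the lowest background, and above it was higher on 8 and lower on 8. When peaks of the lowest background alone were kept, also as neighbours, the direction turned, to 14.5 for isolated peaks against 13.4. The number of reads at the peak followed the split as well, with medians of 93 for isolated and 98 for other peaks at the lowest background and of 352 and 330 above it. Among peaks above the lowest background, the median background was again higher for isolated peaks, 28.9 reads against 18.2. The part of the background in the other differences was not tested beyond this split.

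**Figure D2:**
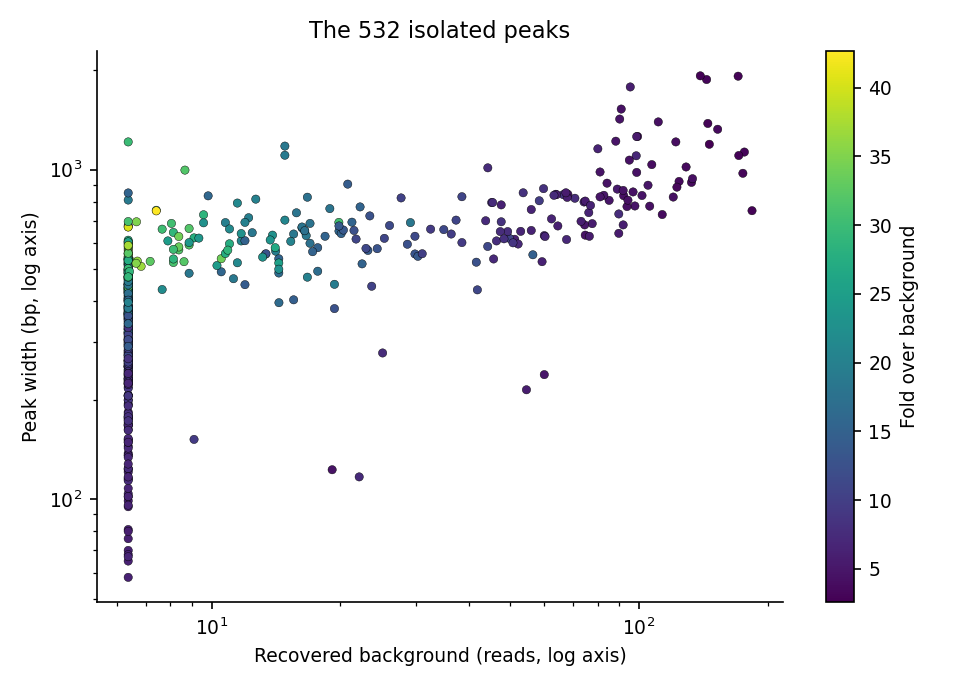
Width (bp, log axis) of each of the 532 isolated peaks against its recovered background (reads, log axis), coloured by fold over background. The column of points at 6.37 reads is the 314 peaks at the lowest background, and the peaks with the highest background at the upper right are wide and have the lowest folds, down to 2.56. Folds below 5.97 are absent from the column, where such peaks would not pass the authors' threshold.

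Of the 10 isolated peaks of highest fold, 9 lay outside gene bodies, as did 288 of all 532 isolated peaks. The highest, chr6:22853663-22854412, had 358 reads over a background of 7.41 and a fold of 42.7, and lay 21.3 kb from Ptprz1, a receptor phosphatase gene of glia and neurons. The exception was chr2:141418579-141419181 inside Macrod2, which had 312 reads over 6.37 and a fold of 42.5. On chromosome 15, chr15:19893257-19893861 had a fold of 41.1 and was 555 kb from Cdh12, a cadherin gene. Each of these stood on a background at or near the lowest.

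A fold of 40.3 from 296 reads was shared by 3 peaks. They were chr1:54957007-54957677, 27.8 kb from the splicing factor gene Sf3b1, chr18:29553353-29554022, 712 kb from the lipid kinase gene Pik3c3, and chr2:42750615-42751169, 97.3 kb from the receptor gene Lrp1b. The next was chr16:52821906-52822480 (39.5), 369 kb from Alcam, which encodes an adhesion molecule. The peak chr6:16734362-16734948 (38.1) lay 96.3 kb from the transcription factor gene Tfec. The last of the 10 were chr14:94264798-94265365 (37.98), 372 kb from the protocadherin gene Pcdh9, and chr12:45775004-45775541 (37.4), 700 kb from Stxbp6. These distances are to either end of the nearest protein-coding gene and say nothing of a link between peak and gene.

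The isolated peaks of lowest fold were wide and sat on high backgrounds. A low fold passes the authors' threshold only with many reads, and so only over a raised background. At the lowest background no peak, isolated or other, had a fold below 5.97. The raised backgrounds of these 5 peaks are therefore a description and not a separate finding. At chr3:57060781-57061974, 375 reads stood over a background of 146, a fold of 2.56, 224 kb from Tm4sf1. The widest isolated peak, chr18:59729886-59731811, spanned 1926 bp with 390 reads over 139 and a fold of 2.79, and the nearest protein-coding gene was Chsy3, an enzyme of chondroitin synthesis, at 320 kb. In Unc5c, which encodes a netrin receptor of axon guidance, chr3:141609609-141610712 had 488 reads over 171 and a fold of 2.84. In Nav3, a neuron navigator gene, chr10:110014849-110016769 spanned 1921 bp with 496 reads over 171 and a fold of 2.90. The fifth, chr19:60347520-60348900, had 433 reads over 145, a fold of 2.97 and gaps of 322 and 253 kb, which also places it among the most remote. All 5 had more reads than the median isolated peak, which is the direction that the threshold sets for low folds.

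Other wide peaks were chr16:46642488-46644364 (1877 bp, fold 3.05, 145 kb from Nectin3), chr17:59044858-59046639 (1782 bp, fold 5.88, 32.4 kb from Nudt12) and chr12:43036513-43038039 (1527 bp, fold 4.41). The highest background of all isolated peaks, 184 reads under 552, was at chr3:114278344-114279094, a fold of 2.99. This peak lay 58.0 kb from Col11a1, which encodes a chain of the cartilage collagen type XI. A peak in Rabgap1l, chr1:160421311-160422441, had 539 reads over 176 (fold 3.04).

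Isolated peaks were found less often in genes than other peaks were. The midpoint lay in a gene body for 244 isolated peaks, or 45.9% (41.6 to 50.2%), against 61.3% of other peaks, and the share was lower on 14 of 16 chromosomes, the exceptions being chromosomes 6 and 10. For protein-coding genes the shares were 36.5% (32.4 to 40.7%) and 53.0%. Within 1 kb of an end of a protein-coding gene lay 2 isolated peaks, or 0.376% (0.0456 to 1.35%), against 4.37% of other peaks, and the share was lower on all 16 chromosomes. Within 1 kb of a protein-coding transcription start, as the promoter windows place it, lay 0 of 505 isolated peaks, against 1063 of 79908 other peaks, or 1.33%. The interval of the isolated share reaches up to 0.728%. The RefSeq gene body of Stxbp6 has its upstream end 0.737 kb from an isolated peak. That peak is counted as near a gene end and not as near a start. The gene table gives no exons, so exons, introns and UTRs were not told apart.

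**Figure D3:**
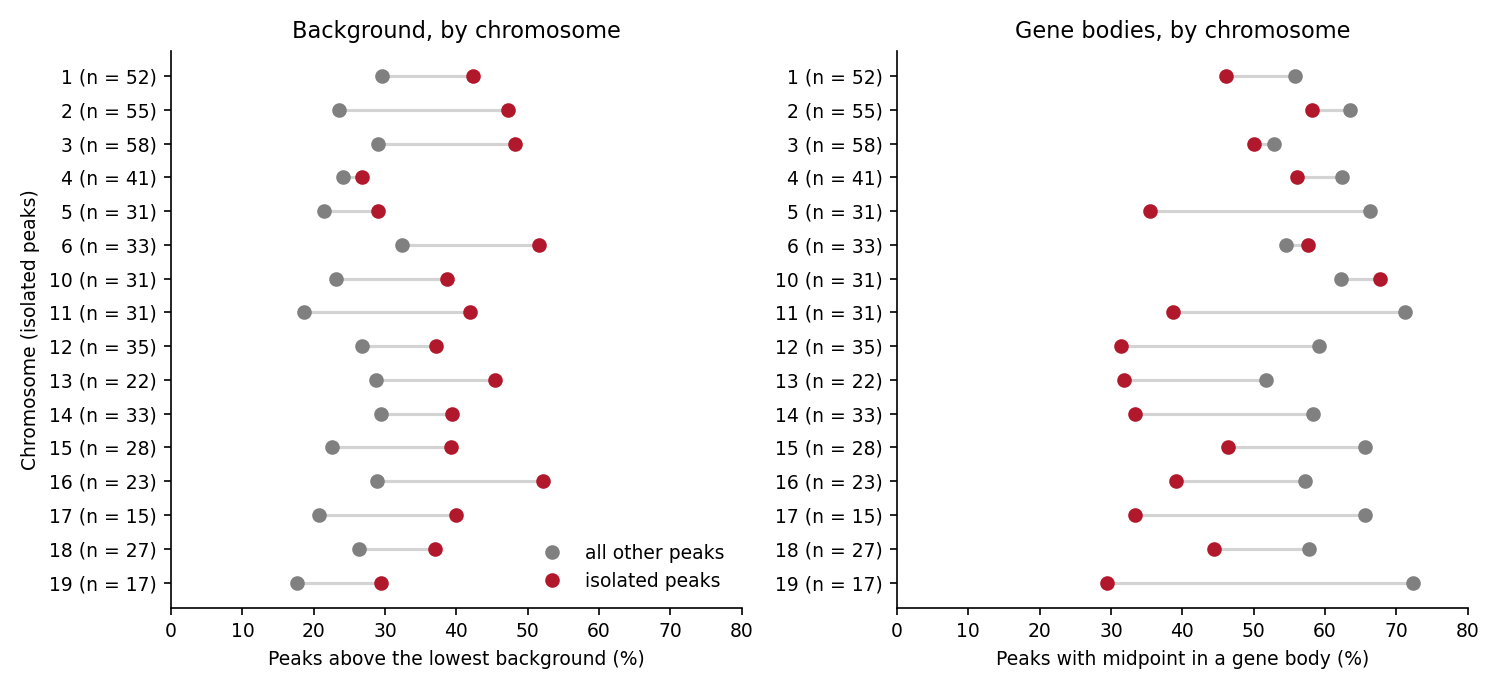
Share of peaks above the lowest background (left, percent) and share with the midpoint in a gene body (right, percent) on each of the 16 chromosomes, isolated peaks in red and other peaks in grey, with the number of isolated peaks in brackets. Red lies to the right of grey on all 16 chromosomes on the left, and to the left of grey on 14 of 16 on the right, all but chromosomes 6 and 10.

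The gene-body difference was present among peaks at the lowest background and was not seen above it. At the lowest background 46.5% of isolated peaks (40.9 to 52.2%) were in a gene body against 68.0% of others, lower on 15 of 16 chromosomes. Above it the shares were 44.95% (38.2 to 51.8%) and 41.2%, higher for isolated peaks on 9 chromosomes and lower on 7. For protein-coding bodies the direction turned above the lowest background, with 39.4% of isolated peaks (32.9 to 46.3%) against 31.5% of others, higher on 11 of 16 chromosomes and lower on 5. Along the distance to the nearer neighbour, the share at the lowest background was 77.0% within 1 kb and 45.7% at 100 to 150 kb, while above the lowest background it stayed between 37.4 and 46.5% in every distance class. The share near a protein-coding gene end was 4.83% within 1 kb, 4.91% at 1 to 10 kb, 1.74% at 75 to 100 kb, 0.469% at 100 to 150 kb and 0% beyond 150 kb. These last 2 classes hold 426 and 106 peaks.

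The 2 peaks near a protein-coding gene end were the Stxbp6 peak described above, 0.737 kb outside that gene from 93 reads, and a peak of 200 reads and fold 27.3 in Astn2, chr4:65381201-65381730, which lay 663 bp inside an end of the gene. Astn2 encodes astrotactin 2, a protein of neuron migration along glia. Isolated peaks outside every gene, 288 in all, lay at a median of 54.3 kb from the nearest gene of any type, against 16.8 kb for other peaks outside genes. Of these 288, 97 (33.7%) were more than 100 kb from any gene, against 10.7% of the others. The median number of protein-coding genes within 100 kb was 1 for isolated peaks and 2 for other peaks. At the lowest background these medians were 1 and 3. Above it both were 1, and the isolated median was lower on 8 of 16 chromosomes and higher on 0. The distances of peaks outside genes were not split by background.

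Where an isolated peak did lie in a protein-coding gene, that gene was usually a long one. The 194 isolated peaks in protein-coding bodies had host genes with a median length of 495 kb, against 76.6 kb for 44226 other peaks. Genes over 500 kb held 96 isolated peaks, which is 18.0% of all isolated peaks (14.9 to 21.6%), against 3.57% of other peaks, and the isolated share was higher on 15 of 16 chromosomes. Counted by gene, 68 of 172 covered protein-coding genes over 500 kb (39.5%) held an isolated peak, and 94 of 15592 shorter ones (0.603%). A longer gene covers more positions, and no comparison at matched gene length was made.

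In all, 220 genes held an isolated peak, of which 162 were protein-coding, 41 lncRNA genes, 16 pseudogenes and 1 a transcribed pseudogene. Of the 162 protein-coding hosts, 44 held no peak other than isolated ones, and the median host held 5 peaks. Among the 220 genes, 26 protein-coding genes and 2 lncRNA genes held 2 or more isolated peaks. The lncRNA genes were Mir99ahg, with folds of 14.0 and 28.4, and Gm32659, with 31.8 and 12.6. The first of the Gm32659 peaks lay in Ankef1 as well.

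Macrod2, a gene of 1998 kb for an enzyme that removes ADP-ribose from proteins, held 4 isolated peaks among 28 peaks. Their folds were 42.5, 9.75, 7.05 and 7.84, and they followed each other over 487 kb with no other peak between them. The other 24 lay on both sides of this run. Cntnap2, of 2241 kb, encodes a neurexin-like adhesion protein of axons and held 3 isolated among 24 peaks, at folds 5.66, 13.8 and 14.2. Nrxn3, a neurexin gene of the presynaptic membrane, held 3 of 14 at 12.3, 7.04 and 6.38. Grik2, a kainate-type glutamate receptor subunit gene, held 3 of 6 at 5.69, 25.8 and 15.2. All 3 peaks of Unc5c were isolated, at folds of 19.8, 2.84 and 4.83. The folds within Unc5c thus ran from among the lowest of all isolated peaks to above their median, and those within Macrod2 from below the median to the second highest.

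**Figure D4:**
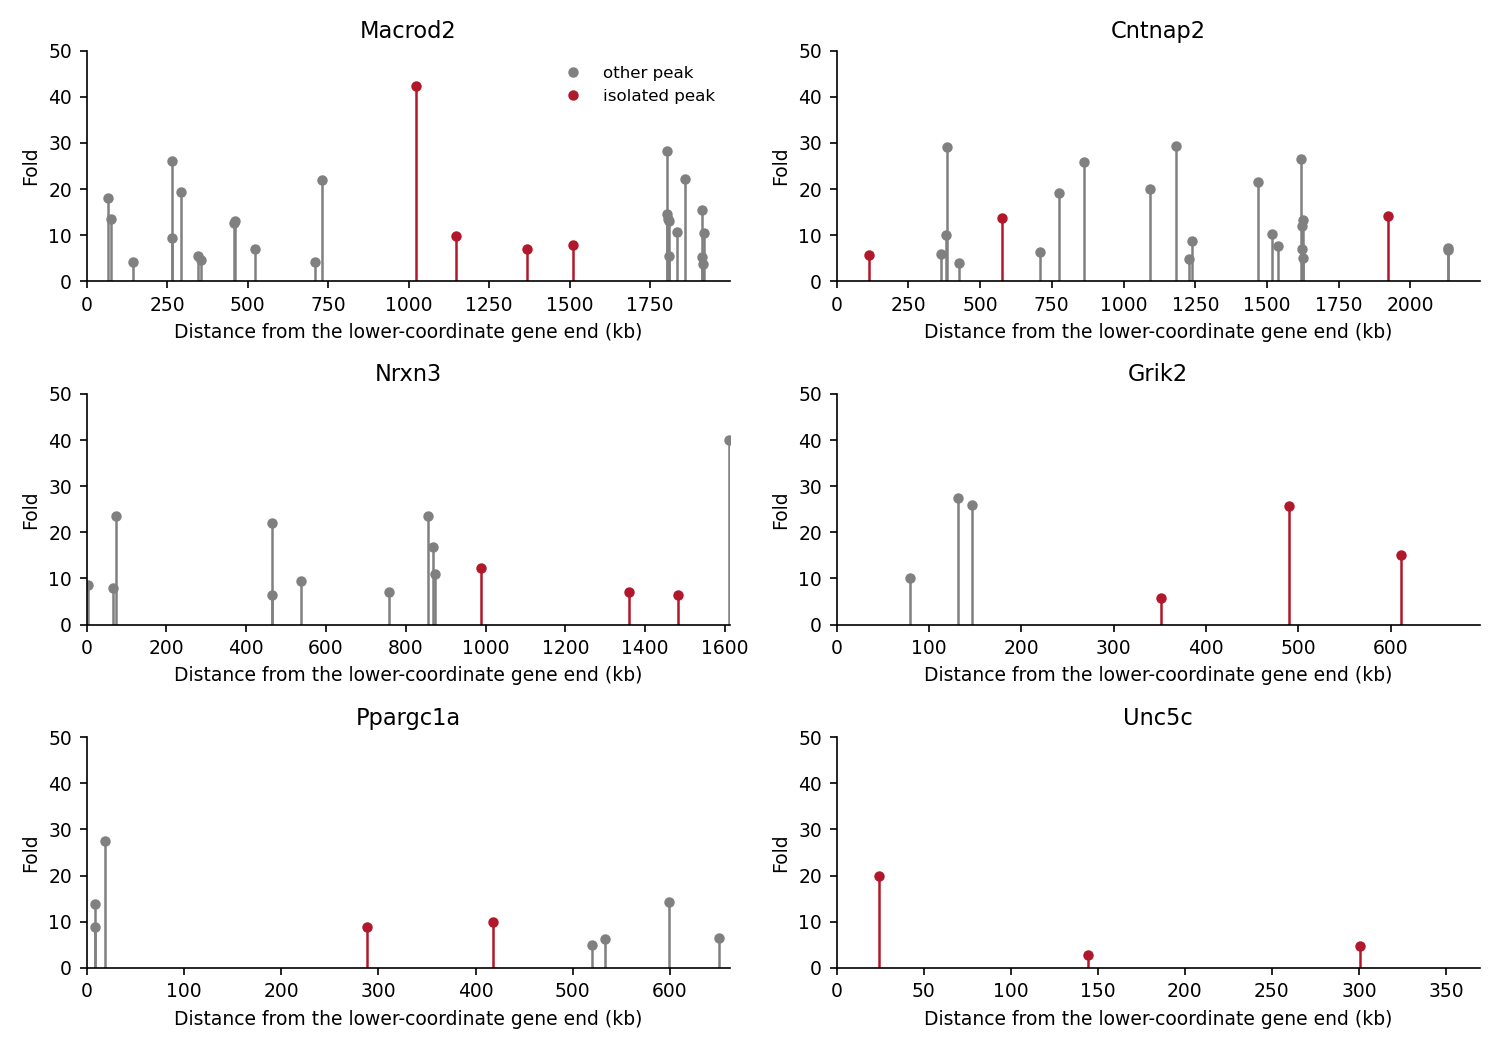
Fold over background of every peak (vertical axis) by distance from the lower-coordinate end of the gene (kb) in Macrod2, Cntnap2, Nrxn3, Grik2, Ppargc1a and Unc5c, with isolated peaks in red and other peaks in grey. Macrod2 holds 4 isolated peaks in a row, and Unc5c holds 3 peaks, all isolated.

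The other 21 protein-coding genes held 2 isolated peaks each. Ppargc1a encodes PGC-1alpha, a coactivator of mitochondrial gene expression and of energy metabolism, and 2 of its 9 peaks were isolated, with folds of 8.95 from 65 reads and 10.0 from 73 reads. Both were below the median isolated fold. Both peaks of Car10, a gene for a carbonic anhydrase-related protein, were isolated, at folds of 27.5 and 15.03. Rabgap1l had 2 of 3, at 3.04 and 6.10. The neuron genes Cntnap5c (36.4 and 24.5), Dpp6 (27.9 and 12.8), Lingo2 (14.2 and 7.60), Khdrbs2 (14.2 and 15.4) and Lrrc7 (9.09 and 6.06) had 2 isolated among 5 to 11 peaks each.

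The receptor and signalling genes among them were Erbb4, a neuregulin receptor gene (13.6 and 29.3), Dab1, which acts in reelin signalling (23.3 and 12.6), Ptprd, a receptor phosphatase gene (10.0 and 19.7), and Lrp1b (9.09 and 20.02). Kcnma1, the large-conductance calcium-activated potassium channel gene, had folds of 23.6 and 11.7. Zbtb20, a transcriptional repressor gene, had 7.47 and 14.0, and Astn2 had 27.3 and 5.32. Ctnna2, an alpha-catenin gene of neurons, had 6.78 and 20.3, Pcdh15, a protocadherin gene of hair cells, had 6.51 and 22.4, and Sntg1, a syntrophin gene, had 19.4 and 8.41. The remaining hosts were Nkain2 (17.2 and 8.61), Spag16 (12.8 and 6.39) and Tmem178b (16.1 and 28.9). The pairs closest in fold were those of Khdrbs2 and Ppargc1a.

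Genes were also read by lists of related function, counting for each the covered genes that hold an isolated peak. Over all 15764 protein-coding genes on covered sequence, 162 (1.03%) held an isolated peak and 64.7% held any peak, at a median length of 18.6 kb. In the list of synaptic and axonal adhesion genes, 12 of 43 (27.9%) held an isolated peak, and the median length of the list was 581 kb. Besides the hosts above, these were Cntnap5a (fold 22.9), Csmd3 (5.85), Ctnna3 (8.95), Negr1 (27.3), Robo1 (7.77), a receptor gene for the guidance cue Slit, and Tenm2 (14.9), a teneurin gene. Of 18 cadherin genes, 3 did, namely Cdh2 (6.24), Cdh7 (8.36) and Cdh12 (17.6), and the list's median length was 138 kb. Cdh2 encodes N-cadherin, and its isolated peak was 65 bp wide with 45 reads, where the lowest values of any isolated peak were 58 bp and 43 reads.

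Of the 32 glutamate and GABA receptor genes, 4 held an isolated peak, among them Grik2, Grm8 (8.41) and Gabra2 (12.6). Of 98 potassium, sodium and calcium channel genes, 5 did, namely Kcnma1, Kcnd2, Kcnh8 (7.05), Kcnj3 (26.7) and Kcna4 (19.0). Of 67 protocadherin genes, 2 did, Pcdh15 and Pcdh7 (23.2). Of 246 Zfp genes, 1 did, Zfpm2 (5.59), a cofactor of GATA factors. No matched-length comparison was made for any of these lists.

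For the lists tied to cartilage and energy metabolism the counts were 0 of 20 cartilage matrix genes, 0 of 22 hypertrophy genes, 0 of 12 glycolysis genes, 0 of 15 TCA cycle genes and 0 of 85 oxidative phosphorylation genes, although 13, 21, 11, 11 and 35 of these held a peak of some kind. Their median lengths were between 7.39 and 35.3 kb, against 415 kb for the 162 protein-coding host genes of isolated peaks, each counted once. With 1.03% of all protein-coding genes and 0.603% of those up to 500 kb holding an isolated peak, less than 1 gene would be found in each of these lists at the overall share, so the zeros say nothing particular about them. Olfactory receptor genes gave 0 of 723 and vomeronasal receptor genes 0 of 148, at median lengths of 0.948 and 1.10 kb. Of the chondrocyte markers, Col2a1 held 5 peaks, Matn1 3, Col11a2 1, and Sox9 and Col9a1 0, and none of these was isolated. Acan and Comp were not analysed here. Methylated DNA does not show expression, so these markers do not check the identity of the cells.

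**Figure D5:**
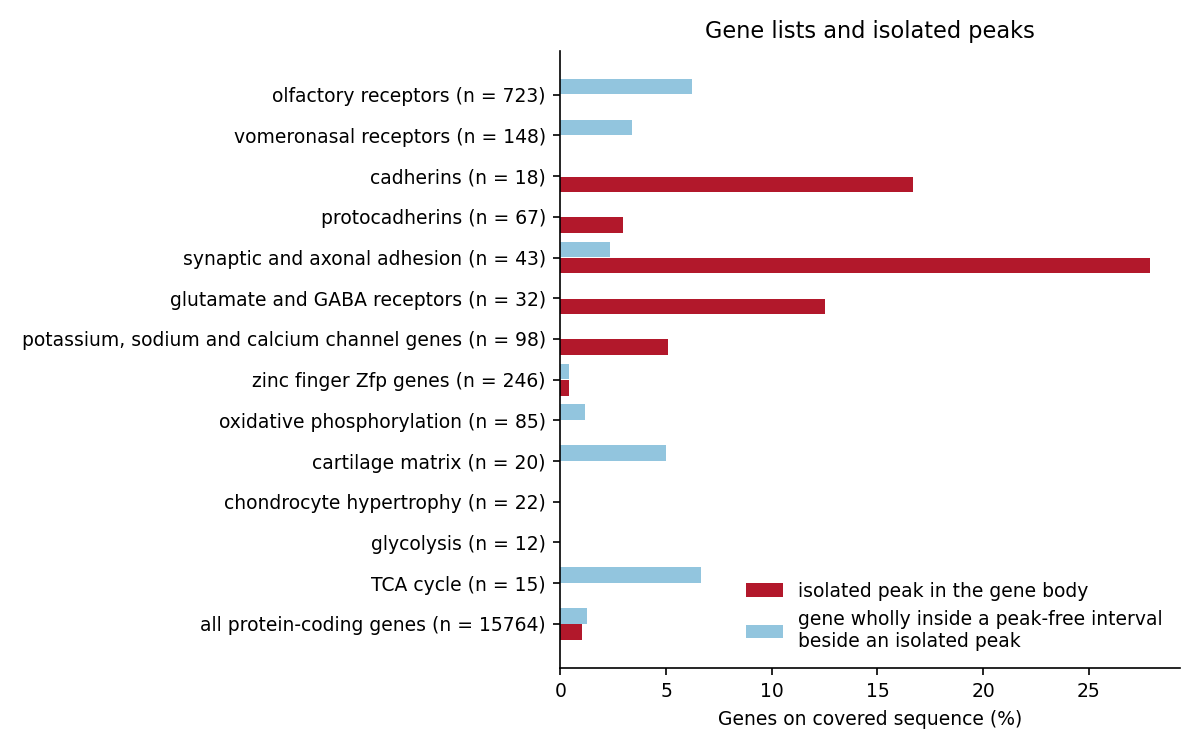
Percent of the genes of each list on covered sequence that hold an isolated peak in the gene body (red) or lie wholly inside a peak-free interval beside an isolated peak (blue), with the number of genes in brackets. A missing bar is a share of 0, and the longest red bar is the 27.9% of synaptic and axonal adhesion genes, against 1.03% of all protein-coding genes.

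Some host genes with known parts in skeletal growth or transcription were picked after their values were seen. Ext1, a heparan sulfate polymerase gene, held 1 isolated peak of fold 7.19 among 7 peaks. The only peak of Dkk2, a Wnt pathway antagonist gene, was isolated at fold 12.6 from 256 reads. Hdac9 (8.004), Esr1, which encodes oestrogen receptor alpha (6.24), and Foxp2 (8.14) held 1 each among 12, 9 and 4 peaks.

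The 532 isolated peaks bordered 973 peak-free intervals, which covered 162 Mb, or 8.31% of the sequence spanned. These intervals were poor in genes. They held 676 of 31528 protein-coding gene ends, or 2.14%, at 4.17 per Mb against 17.2 per Mb elsewhere, and lncRNA gene ends stood at 4.87 against 10.6 per Mb. Promoter windows in the intervals had a lower median number of CG in their 300 bases. The median was 8 for 341 protein-coding promoters (quartiles 2 and 23) against 14 for 15057 elsewhere (4 and 25), and 2 against 4 for lncRNA promoters. The quartiles of the protein-coding promoters overlapped widely. The protein-coding windows in the intervals include those of clustered olfactory receptor genes and Sprr genes, which held few CG and are not independent. No comparison without such families was made, so the lower median was not separated from them.

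A total of 201 protein-coding genes, or 1.28%, lay wholly within such an interval. Several came in clusters of one family. The olfactory receptor genes contributed 45 of 723 (6.22%), in 5 intervals on chromosomes 2 and 19, and vomeronasal receptor genes contributed 5 of 148. Among families picked after the values were seen, 12 of 14 Sprr genes of the epidermal barrier on chromosome 3 lay in 2 intervals, 7 of 12 Spink genes for protease inhibitors on chromosome 18 in 3 intervals, and 6 of 21 Ccl chemokine genes on chromosome 11 in 2 intervals. Genes of one cluster share an interval and are not independent.

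Col11a1 was the only cartilage matrix gene of the list in a peak-free interval. It lay wholly within 257 kb without a peak, bounded on one side by the isolated peak of highest background. Mdh1, malate dehydrogenase, lay in an interval of 114 kb, and Ndufs3, a complex I subunit gene, in one of 119 kb. Lrrtm1, the synaptic gene inside Ctnna2, lay in the 275 kb between both isolated peaks of that gene. Others picked after the values were seen were Cd44 (282 kb), Pax1 (189 kb), a gene of vertebral development, Klf4 (124 kb) and Alx1 (394 kb). Absence of a peak here means that no region passed the authors' threshold in the merged data.

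Isolated peaks followed each other in places. Runs of consecutive isolated peaks numbered 60 pairs, 9 of 3 peaks, 3 of 4 and 1 of 5, and 368 isolated peaks stood alone. The run of 5 spanned 712 kb on chromosome 18 at chr18:27462136-28174288. The nearest protein-coding gene to any of its peaks was Celf4, 1708150 bp from the first. Its folds were 4.34, 33.5, 8.41, 28.6 and 7.05, so strong and weak peaks alternated. The runs of 4 were that of Macrod2, chr3:155033273-155460107 with folds of 26.2, 18.1, 4.93 and 13.2, of which the first 2 lie in Tnni3k and Lrriq3, and chr3:141378548-141766681 with 21.0 upstream of Unc5c and the 3 Unc5c peaks. By length, isolated peaks were most frequent on the covered part of chromosome 6 with 0.385 per Mb (33 peaks) and on chromosome 3 with 0.370 per Mb (58), and least frequent on chromosomes 17 with 0.163 (15) and 13 with 0.188 (22).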

How the data were processed

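Methylated DNA was enriched with MBD2 from sonicated chondrocyte DNA and sequenced, per the labels' protocols. Per the submitters' processing notes, fastp, Bowtie2 and MACS2 and the builds mm10 and GRCm38 were used; versions and settings are not given in the sources used here. The single deposited list holds, in columns with other headings, peak positions, the authors' fold (a ratio over local background), the deposited −log10 p and −log10 q, and a deposited score equal to the whole part of 10 times −log10 q. The names of the peaks, per the file, point to 3 datasets joined ahead of calling. The lowest −log10 q was 20.0. The list as analysed here breaks off within chromosome 6 in 1 incomplete line, which was left out, so it is held only in part: no peaks of X, Y or chromosomes 7 to 9 entered the comparisons, and all counts are for the covered sequence, and the list also holds 143 peaks on 15 unplaced contigs.

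The planned test of control against cKO was not run, since no column of the list belongs to a sample, so the planned count test was replaced by description. Reads at the peak and background were solved from fold = (reads + 1)/(background + 1) and the Poisson p for whole-number reads. The match, within 1% of the spacing between whole numbers, held for 99.97% of all peaks and 100% of isolated peaks (5 other peaks without a match had values below the lowest background and are counted above it). On 5000 peaks simulated with the same formula from the recovered values, reads were recovered exactly in 100%. This checks the solving step and not the formula. With simulated reads that were not whole numbers, 0% matched. Peaks were placed by midpoint on the RefSeq gene and promoter tables of GRCm38.p6, which give no exons, and the promoter table was not used for chromosome 18. No genome sequence was used, so assembly gaps were not masked. Python 3.11.15, pandas 2.3.3, numpy 2.4.6 and scipy 1.17.1 were used.

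The isolated peaks and the gene lists were chosen with earlier results of these data known. Named were the 10 highest, 5 lowest, 5 widest and 10 most remote isolated peaks, the 5 of highest background, those within 1000 bp of a protein-coding gene end, genes with 2 or more, list genes with 1, and 3 peaks on each side of the threshold; some items under this rule are not reported here. Alternatives were other gap limits, summit gaps, merging within 500 bp, −log10 q of at least 50, peaks of the lowest background only, leaving out chromosome 6, other placements, protein-coding bodies and windows of 500 and 2000 bp.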

Additional observations from a re-analysis of the deposited data

Results flagged for a closer look

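The list also held 143 peaks on 15 unplaced contigs, outside the comparison of chromosomes. Their median fold was 12.7, and the largest gap between neighbours on a contig was 124287 bp. By the same rule 0 of them would count as isolated.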

How the results depend on the processing

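Over the settings tried, 43 of 66 values behind the main comparisons were counted as kept. For differences this meant the same direction and a move below a limit. The limit was the distance from the middle to either end of the isolated peaks' own interval in the main comparison. No interval of the difference itself was used. The number of isolated peaks was counted as kept where it stayed close to 532, namely 539 with summit gaps, 545 with merging and 499 without chromosome 6. A gap limit of 50 kb gave 3135 isolated peaks, 150 kb gave 106 and 200 kb gave 24, while −log10 q of at least 50 gave 800 and the lowest background only gave 1223. For width, where the medians differed by 57 bp, the difference was 23 bp at −log10 q of at least 50, 6 bp at 200 kb and 14 bp for the lowest background only. The median fold of isolated minus other peaks, −0.54, turned to 1.90 at 200 kb and 1.09 for the lowest background only. The share above the lowest background differed by 16.1 points, and by 8.36 at 200 kb and 9.87 at 50 kb. For protein-coding gene ends the difference of −4.00 points became −3.17 at −log10 q of at least 50, −2.93 at 50 kb, −7.59 with a window of 2000 bp and −2.19 with 500 bp. For gene bodies −15.5 points became −10.8 at −log10 q of at least 50 and −26.6 for the lowest background only. Comparisons within each kind of background, chosen after seeing the data, gave at the lowest background −21.5 points for gene bodies, −13 bp for width, −5.88 for −log10 q and −5 reads at the peak. Above it they gave 3.74 points for gene bodies, 7.98 for protein-coding bodies, −2.38 for gene ends, 14.5 bp for width and −1.28 for −log10 q. The cause of these changes was not tested. No paired analysis was possible because no value of the list belongs to a sample, and for the same reason no replicate could be left out. The depth of the merged data is unknown, so a stretch without a peak cannot be told apart from one below the threshold.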
